A study of Mus musculus with 2 samples.

Results

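CC chemokines are small secreted proteins that draw leukocytes towards their source. They are named for a pair of neighbouring cysteines near the start of the mature protein, and they act through G protein-coupled receptors on the responding cell. Ccl2, Ccl7 and Ccl12 attract monocytes through the receptor Ccr2, and Ccl11 attracts eosinophils through Ccr3. In the uterus such signals are known for bringing macrophages, NK cells and other leukocytes into the endometrium. The 10 genes Ccl2, Ccl3, Ccl4, Ccl5, Ccl6, Ccl7, Ccl8, Ccl9, Ccl11 and Ccl12 were taken by symbol from the 32285 genes in the deposited count matrices, and all 10 were found.

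The cells came from the whole uterus of C57BL/6J female mice aged 6 months, dissociated for 5 hours with collagenase and captured in droplets for sequencing from the 3′ end of transcripts. There were 2 libraries, and each pooled 3 mice: 1 titled Prickle1 f/f, called control here, and 1 titled Prickle1 f/f MiC, called cKO. Both groups thus carry the f/f allele of Prickle1, a planar cell polarity gene, and the labels state a wild-type genotype for both and do not explain MiC. The series asked what loss of Prickle1 in the myometrium does to the uterus. Over all cells Prickle1 had 96 UMIs (unique molecular identifiers, counted transcripts) under the control label and 264 under the cKO label, which is 2.56 and 9.0 CPM (counts per 1e6 UMIs). In smooth muscle-like cells it had 13 and 51 UMIs (13.6 and 24.0 CPM, a ratio of 1.77 with an interval of 0.947 to 3.54). Prickle1 was thus not lower under the cKO label, and a 3′ count checks a deletion only where it lies in the counted part of the transcript. For this reason control and cKO below always mean the labels.

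Each group was a single library, so no test could be made and nothing below has a replicate error. Every interval is at 95% and covers counting error only, not the variation between mice or preparations. Levels are given in CPM of all UMIs of a cell class in a library, and a log2 ratio is that of cKO over control after adding 5 CPM to each, which understates the ratios of low genes. A gene was counted as past 2-fold when its log2 ratio was at least 1 in size and it reached 10 CPM in either library.

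The libraries held 34261441 to 45035801 UMIs and 3490 (control) and 3586 (cKO) cells, with medians of 4903 to 4953 UMIs per cell, and 6 cell barcodes occurred in both. Cells were clustered without chemokine or chemokine receptor genes, and clusters were named "-like" from marker genes, so a difference from the study's own names may come from this rebuilding. The classes compared had at least 100 cells in each library. They were fibroblast-like (856 cells in control and 1349 in cKO), epithelium-like (1318 and 110), smooth muscle-like (310 and 684), T cell-like (193 and 437), macrophage or monocyte-like (285 and 200, called macrophage-like below), NK cell-like (142 and 300) and dendritic cell-like (157 and 210). Different clusters held the largest part of a class in the 2 libraries for epithelium (cluster 0 in control, cluster 5 in cKO), T cells (10 and 9) and smooth muscle (12 and 16). Over 90% of clusters 0 and 1 was control and 93.6% of cluster 21 was cKO, so these may stand for a library rather than a cell type. Clusters 3 (0.860% of control and 1.59% of cKO cells) and 19 (0.459% and 0.697%) stayed unnamed. Each held at least 50% of the markers of a further, unrelated class, fibroblasts for cluster 3 and T cells for cluster 19. Automatic doublet calling marked 4 of 7076 cells (0.0565%) and had not worked, so doublets remain. RNA free in the droplets was bounded from above in each class by the markers of unrelated classes. The median bound over the classes compared was 0.738% of the UMIs in control cells and 0.826% in cKO cells, and this 1 value per library was used for all classes. The bounds of these classes ran from 0.0850% (epithelium-like cells of cKO) to 2.42% (dendritic cell-like cells of cKO).

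All 10 genes lie on chromosome 11 of the mouse genome (GRCm38, GENCODE M21 annotation) in 2 blocks. The first block spans 81.2 kb (chr11:82035571-82116799) and holds Ccl2, Ccl7, Ccl11, Ccl12 and Ccl8 in that order, all on the plus strand. The second spans 139 kb (chr11:83525778-83664683) and holds Ccl5, Ccl9, Ccl6 and Ccl3 on the minus strand and Ccl4 on the plus strand. All are protein-coding. Ccl2 overlaps Gm17268 and Ccl6 overlaps E230016K23Rik on the other strand, and whether the counting used strand is not given in the sources used here.

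The cysteine pair that gives the family its name is shown for 4 members in the coding sequence of their GENCODE M21 transcripts, with 4 codons on each side and the 2 cysteine codons in capitals.
Ccl12: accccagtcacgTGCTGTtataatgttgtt
Ccl8: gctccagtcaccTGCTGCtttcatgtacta
Ccl9: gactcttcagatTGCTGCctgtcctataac
Ccl6: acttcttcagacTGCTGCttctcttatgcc
The pair lies at codons 33 and 34 of 104 in Ccl12, 32 and 33 of 97 in Ccl8, 57 and 58 of 122 in Ccl9 and 50 and 51 of 116 in Ccl6. Ccl9 and Ccl6 share the longer stretch before the pair. Both cysteines are TGC in all windows except that of Ccl12, which has TGC and then TGT.

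Ccl12 and Ccl8 are neighbours, with 11785 bases between them, and their values in the 2 libraries differed as described below, so the 250 bases before their starts are shown (RefSeq, GRCm38.p6, plus strand, chr11:82101595-82101844 and chr11:82114935-82115184). Capitals mark TATAAA, the core of a TATA box.
Ccl12: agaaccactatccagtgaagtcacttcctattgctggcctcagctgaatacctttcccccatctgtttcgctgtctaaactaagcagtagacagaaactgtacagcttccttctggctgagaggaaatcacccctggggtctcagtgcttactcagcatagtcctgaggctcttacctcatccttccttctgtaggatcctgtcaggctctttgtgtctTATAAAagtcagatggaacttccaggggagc
Ccl8: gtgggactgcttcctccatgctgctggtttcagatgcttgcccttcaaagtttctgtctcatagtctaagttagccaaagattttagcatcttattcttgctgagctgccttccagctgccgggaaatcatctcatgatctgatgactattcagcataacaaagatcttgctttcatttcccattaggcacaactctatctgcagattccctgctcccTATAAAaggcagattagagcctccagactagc
TATAAA begins 31 bases before the annotated start of Ccl12 and 32 bases before that of Ccl8. Promoters of 5 members were matched (Ccl3, Ccl6, Ccl8, Ccl9 and Ccl12), each as a window of 250 bases before and 50 after the start, and 4 motifs were searched on both strands. TATAAA occurred in 13.6% of all 32817 promoter windows, and Ccl9 held it at 3 places counting both strands, 2 of which overlap. A match to the NF-kB consensus (8.46% of windows) was found in Ccl9, 35 bases before the start. TTCNNNGAA, the letters of a gamma-activated site (8.29% of windows), and the repeat of an interferon-stimulated response element (3.43%) were not in any of the 5 windows. Ccl3 and Ccl6 held none of the 4 motifs.

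**Figure D1:**
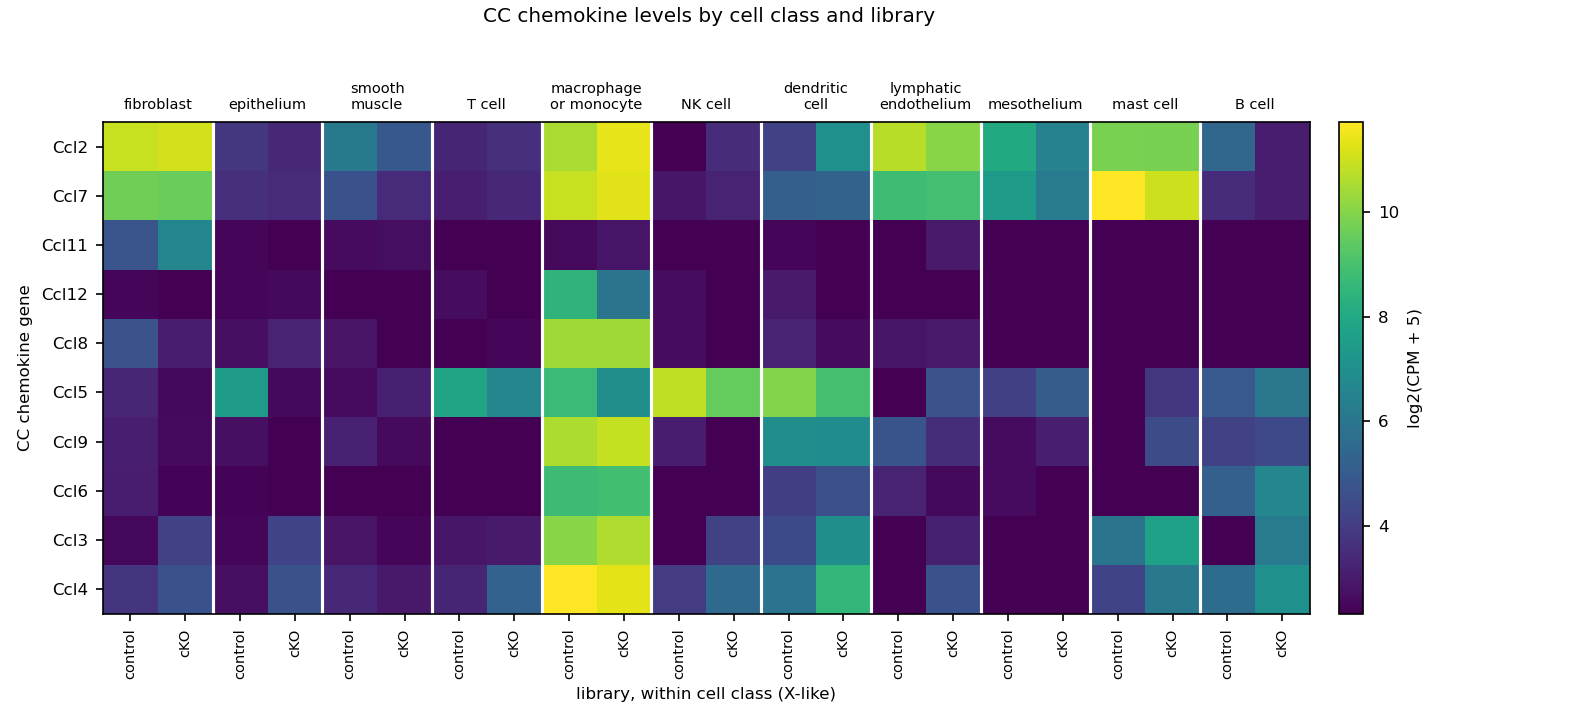
Level of each CC chemokine (rows, first chromosome 11 block above the second) in each cell class and library (columns), as log2(CPM + 5) on the colour scale. Macrophage-like cells carried 9 of the 10 genes, Ccl11 was almost all in fibroblast-like cells, and Ccl5 was highest in NK cell-like cells (1815 CPM in control and 719.9 CPM in cKO).

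Macrophage-like cells were the broadest source of CC chemokines in both libraries. A median of 5 of the 10 genes had a UMI per cell in control and 4 in cKO, and 71.6% of control and 61.5% of cKO macrophage-like cells had 4 or more. In fibroblast-like cells the median was 1 gene in both libraries, and 1.64% and 1.63% of cells had 4 or more. Median depth was 7608 UMIs per macrophage-like cell in control and 5546 in cKO, against 9278 and 10095 in fibroblast-like cells, so macrophage-like cells carried more of these genes at a lower depth. The Ccl4 and Ccl9 genes were also among the 10 leading genes of the macrophage-like cluster. Of the UMIs in cells, macrophage-like cells held 95.0% of Ccl3, 94.6% of Ccl4, 91.4% of Ccl6, 91.0% of Ccl8, 88.2% of Ccl9 and 97.0% of Ccl12 in control. In cKO the same shares were 56.4%, 62.7%, 78.2%, 95.4%, 87.2% and 91.6%.

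In macrophage-like cells 2 of the 9 members that reached 10 CPM were past 2-fold lower in cKO, Ccl12 and Ccl5, and 0 were past 2-fold higher. Over all 7316 genes tested in this class 3.2% were past 2-fold lower and 1.79% higher. The median log2 ratio was 0.09 over the 9 members and 0.10 over all genes tested. The other 7 members lay between -0.40 (Ccl4) and 0.83 (Ccl2). The cells carried their own markers at 4977 CPM summed in control and 5659 CPM in cKO, with 8 of 8 detected in both. NK cell markers stood at 83.9 CPM in control and 5.90 CPM in cKO (7 and 5 of 8 detected, Ncr1 at 0 in both). T cell markers stood at 14.9 and 82.6 CPM (7 of 8 detected in both, Cd8a at 0), and erythroid markers at 8.51 and 1718 CPM (2 and 3 of 4 detected). The part of these other cell types in the macrophage-like results was not tested.

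**Figure D2:**
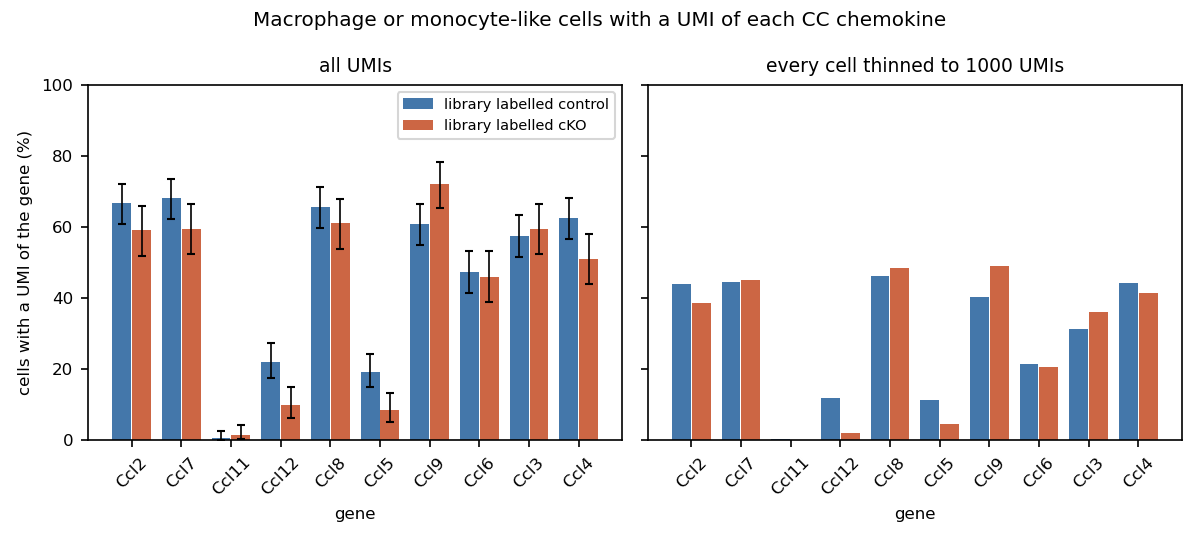
Percentage of macrophage-like cells with at least 1 UMI of each gene, from all UMIs (left, bars with exact binomial 95% intervals) and after every cell was thinned to 1000 UMIs (right). Ccl12 went from 22.1% in control to 10.0% in cKO and Ccl5 from 19.3% to 8.50%, and both gaps are present in the thinned cells.

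Ccl2, the main monocyte attractant of the family, was counted at 1477 CPM in control macrophage-like cells (3469 UMIs, interval 1428 to 1527) and at 2634 CPM in cKO (3570 UMIs, 2548 to 2722), a log2 ratio of 0.83. The share of macrophage-like cells with a Ccl2 UMI went the other way, 66.7% in control (60.9 to 72.1%) and 59.0% in cKO (51.8 to 65.9%), and the cells with a UMI had a median of 5 Ccl2 UMIs in control and 8 in cKO. No order is therefore read from the shares. T cell-like cells, which are not known as a source of Ccl2, had a Ccl2 UMI in 1.55% of control and 2.29% of cKO cells at median depths of 4076 and 3479 UMIs. Thinned to 1000 UMIs per cell, the macrophage-like shares were 43.9% and 38.5%.

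Fibroblast-like cells nevertheless held most Ccl2 UMIs, 76.4% of those in control cells and 82.3% of those in cKO cells. Their level was 1944 CPM in control (18610 UMIs, interval 1916 to 1972) and 2145 CPM in cKO (34824 UMIs, 2122 to 2167), a log2 ratio of 0.14, near the median of 0.10 over all genes tested. A Ccl2 UMI was found in 42.2% and 44.6% of fibroblast-like cells. Summed over all cells the level was 650.0 CPM in control and 1441 CPM in cKO, and the cKO library held 1349 fibroblast-like cells against 856 in control. Lymphatic endothelium-like cells had 1671 and 1048 CPM of Ccl2 (26 and 99 cells), mast cell-like cells 906 and 887 CPM (41 and 51 cells), and mesothelium-like cells 258 and 84.5 CPM (79 and 29 cells).

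Within the fibroblast-like class the Ccl2 difference between libraries had no common direction. Ccl2 was higher in cKO in cluster 8, led by Ptx3 and Thbs2 (2381 and 3918 CPM, log2 ratio 0.72), and in cluster 13 (506 and 1074 CPM, 1.08). It was lower in cKO in cluster 11, led by Igfbp3 and Dpt (1634 and 775 CPM, -1.07), and in cluster 21 (1072 and 390.2 CPM, -1.45), which had 16 control cells against 234 in cKO. Cluster 17 was low in both libraries (76.8 and 94.3 CPM). The class value of Ccl2 thus joins clusters with differences of opposite sign, and it ranged from -1.04 to 0.52 over the processing alternatives.

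Ccl7, which attracts monocytes through the same receptor, was carried by the same classes as Ccl2, mast cells included. In mast cell-like cells, its highest class in control, it was at 3283 CPM in control (232 UMIs, interval 2874 to 3734) and 2049 CPM in cKO (231 UMIs, 1793 to 2331), from 41 and 51 cells. In macrophage-like cells it was 1919.6 CPM in control and 2535 CPM in cKO (log2 ratio 0.40), its highest class in cKO, and in fibroblast-like cells 816 and 755 CPM (-0.11). Fibroblast-like cells held 57.5% of its UMIs in control and 70.4% in cKO, and macrophage-like cells 33.2% and 19.7%. By fibroblast-like cluster Ccl7 had the same sign of difference as Ccl2 in 5 of 5, with log2 ratios of 0.43 in cluster 8, -0.80 in 11, 0.87 in 13, 1.59 in 17 and -1.68 in 21.

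Ccl2 and Ccl7 were found in the same cells. Among control macrophage-like cells with a Ccl2 UMI 86.8% also had a Ccl7 UMI, against 30.5% of those without, and in cKO the shares were 83.1% and 25.6%. In fibroblast-like cells they were 69.3% against 12.1% in control and 69.2% against 19.0% in cKO. Deeper cells have more of every gene, so the shares were repeated at 1000 UMIs per cell: 74.4% against 21.2% and 90.9% against 16.3% in macrophage-like cells, and 52.1% against 7.17% and 52.7% against 10.6% in fibroblast-like cells. The gap was thus present at equal depth in both classes and both libraries. The shares were not made within the fibroblast-like clusters, whose Ccl2 levels differ widely, so the part of the cluster mix was not tested. The gap was not particular to this pair. In thinned macrophage-like cells Ccl4 was found in 58.4% of those with Ccl2 against 33.1% without in control, and 61.0% against 29.3% in cKO. Ccl5 had no such gap with Ccl2 (9.60% against 12.5% in control and 3.90% against 4.88% in cKO).

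Ccl12, a mouse monocyte attractant that also acts through Ccr2, was confined almost wholly to macrophage-like cells and was lower in cKO. It had 809 UMIs in control (344 CPM, interval 321 to 369) and 76 in cKO (56.1 CPM, 44.2 to 70.2), a log2 ratio of -2.52 and a level 6.14-fold lower (4.85 to 7.88). A Ccl12 UMI was found in 22.1% of control (17.4 to 27.4%) and 10.0% of cKO macrophage-like cells (6.22 to 15%), and in 11.9% and 2.00% after thinning. Epithelium-like cells, which should lack it, had one in 0.455% and 0.909% of cells at median depths of 4320.5 and 4065.5 UMIs. A few cells carried much of the signal: the 5 highest held 50.3% of the UMIs in control and 65.8% in cKO, and without them the log2 ratio was -2.87. Ccl12 was past 2-fold lower under all 15 alternatives, from -3.29 to -2.42.

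Ccl8, an attractant of monocytes and T cells whose gene follows Ccl12 on the chromosome, was at a similar level in the macrophage-like cells of both libraries. It had 3117 UMIs in control (1327 CPM, interval 1281 to 1374) and 1815 in cKO (1339 CPM, 1278 to 1402), a ratio of 1.01 (0.952 to 1.07). A UMI was found in 65.6% and 61.0% of these cells, and in 0% and 0.229% of T cell-like cells. For its neighbour Ccl12 the ratio interval in macrophage-like cells was 0.127 to 0.206. Both intervals cover counting error only, and a few cells held much of the Ccl12 signal, so comparing them is not a test.

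**Figure D3:**
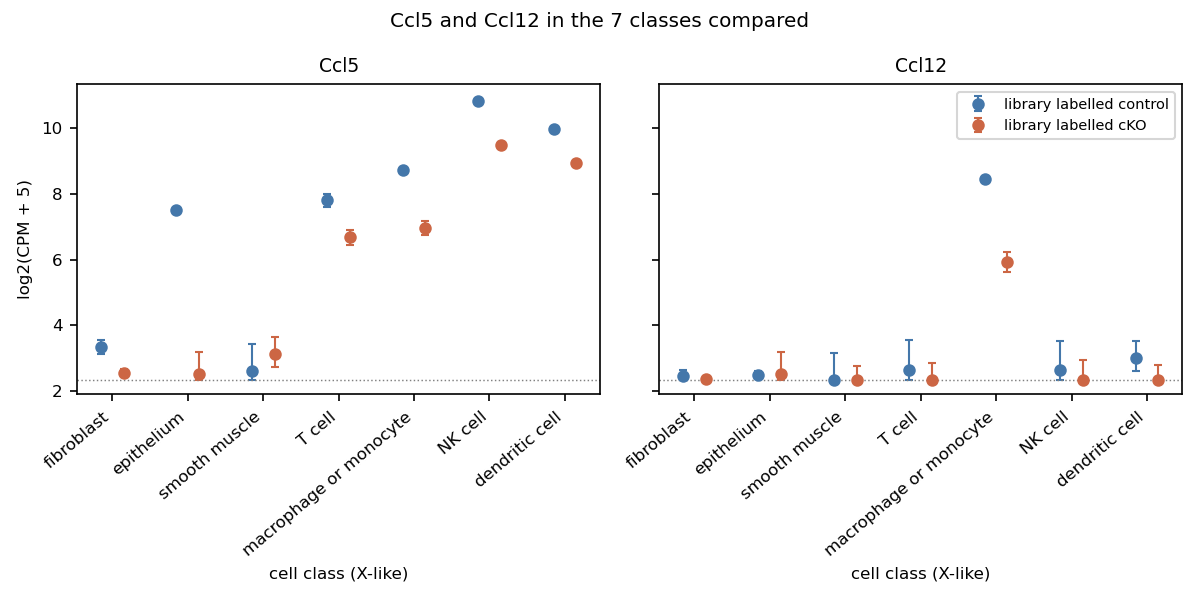
Ccl5 (left) and Ccl12 (right) in the 7 classes compared, as log2(CPM + 5) per library with exact Poisson 95% intervals, where the dotted line is the value at 0 CPM. Ccl5 is lower in cKO in the epithelium-like, T cell-like, macrophage-like, NK cell-like and dendritic cell-like classes, and Ccl12 stands clear of the line in macrophage-like cells alone (344 and 56.1 CPM).

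In fibroblast-like cells, by contrast, Ccl8 differed between the libraries. Of the 6 members that reached 10 CPM in this class 1 was past 2-fold lower in cKO (Ccl8) and 2 were past 2-fold higher (Ccl11 and Ccl3), with a median log2 ratio of 0.54 over the 6 and 0.10 over all 8142 genes tested, of which 0.897% were past 2-fold lower and 1.68% higher. Ccl8 had 204 UMIs in control (21.3 CPM, interval 18.5 to 24.4) and 54 in cKO (3.33 CPM, 2.5 to 4.34), 6.41-fold lower (4.73 to 8.82) and a log2 ratio of -1.66. A Ccl8 UMI was found in 9.81% of control (7.90 to 12.0%) and 1.93% of cKO fibroblast-like cells (1.26 to 2.81%). At 1000 UMIs per cell these shares were 1.64% and 0%, near the level of 1 UMI. Ccl8 was lower in cKO in 5 of 5 fibroblast-like clusters, with log2 ratios from -3.72 (cluster 21, 24 and 9 UMIs) to -1.15 (cluster 11, 34 and 7 UMIs), and in cluster 13 it had 24 UMIs in control and 0 in cKO, at least 2.68-fold lower. Macrophage markers in the fibroblast-like class summed to 23.4 CPM in control and 13.9 CPM in cKO, with 8 of 8 detected in both, and their part in the Ccl8 result was not tested.

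Ccl11, the eosinophil attractant eotaxin, was found almost wholly in 1 class. Fibroblast-like cells held 93.6% of its UMIs in control and 97.3% in cKO. They had 218 UMIs in control (22.8 CPM, interval 19.8 to 26.0) and 1524 in cKO (93.9 CPM, 89.2 to 98.7), a ratio of 4.12 (3.57 to 4.77) and a log2 ratio of 1.83. A Ccl11 UMI was found in 7.83% of control (6.12 to 9.83%) and 12.8% of cKO fibroblast-like cells (11 to 14.6%), in 2.34% and 3.85% after thinning, and in 0% of T cell-like cells of either library. The difference was thus larger in UMIs per cell than in the share of cells.

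Most Ccl11 UMIs of cKO lay in clusters 21 and 8. Cluster 21, led by Dio2 and Aldh1a2 and drawn mostly from cKO, held 812 of the cKO UMIs (178 CPM against 123 CPM in the 16 control cells, log2 ratio 0.52). Cluster 8 went from 10.3 CPM in control (56 UMIs) to 75.9 CPM in cKO (587 UMIs), a log2 ratio of 2.40, and its 5 highest cKO cells held 59.6% of those UMIs. Clusters 11 (0.14) and 13 (0.75) had ratio intervals that included 1, and cluster 17 was lower in cKO (154 and 49.0 CPM, -1.55). Without cluster 21 the class log2 ratio was 1.41, and over the 15 alternatives it ranged from 1.01, with every cell thinned to 1000 UMIs, to 2.00.

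**Figure D4:**
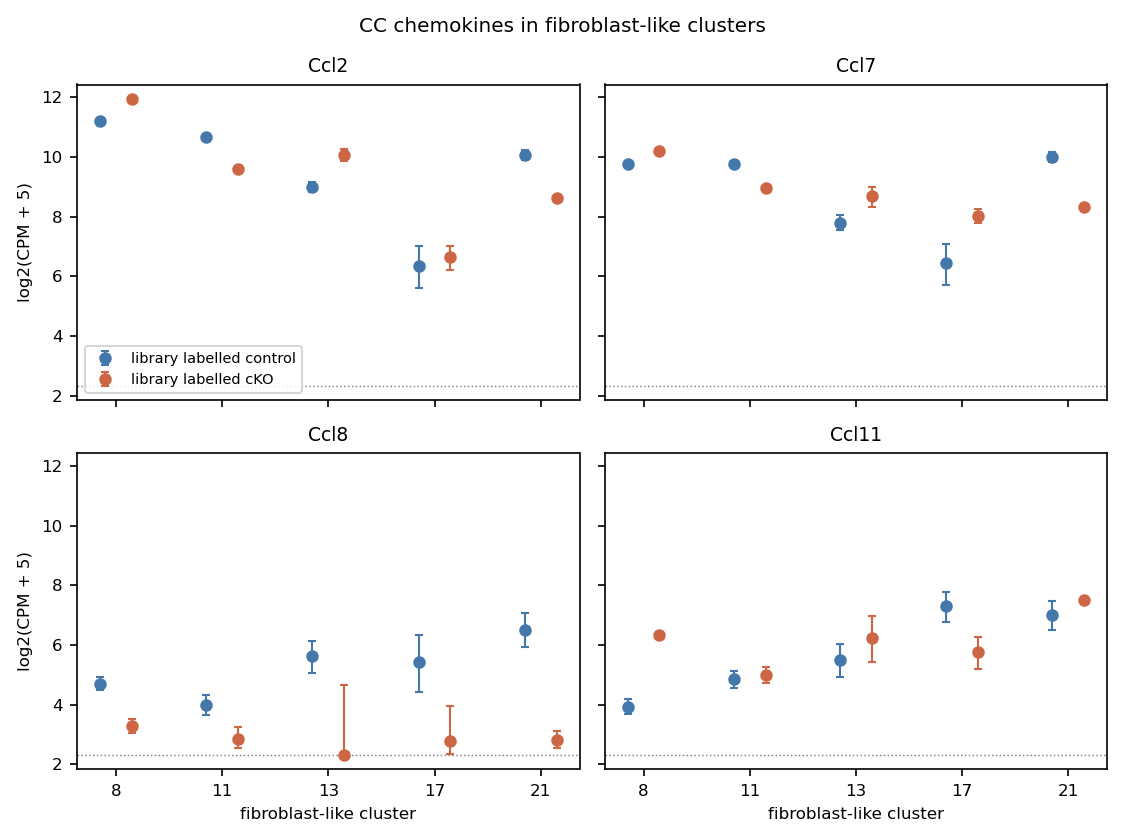
Ccl2, Ccl7, Ccl8 and Ccl11 in the 5 fibroblast-like clusters, as log2(CPM + 5) per library with exact Poisson 95% intervals, where the dotted line is the value at 0 CPM. Ccl8 is lower in cKO in all 5 clusters, while Ccl2, Ccl7 and Ccl11 are higher in some clusters and lower in others.

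Ccl3 and Ccl4, inflammatory chemokines that attract monocytes and lymphocytes, came mainly from macrophage-like cells. There Ccl3 was counted at 1057 CPM in control (2483 UMIs, interval 1016 to 1099.5) and 1530.2 CPM in cKO (2074 UMIs, 1465 to 1598), a log2 ratio of 0.53, in 57.5% and 59.5% of cells. Ccl4 was counted at 3362 CPM in control (7898 UMIs, 3289 to 3437) and 2542 CPM in cKO (3446 UMIs, 2458 to 2629), a log2 ratio of -0.40, in 62.5% and 51.0% of cells. Neither was past 2-fold in these cells. They were found together: 79.3% of control macrophage-like cells with a Ccl3 UMI had a Ccl4 UMI against 39.7% of those without, and in cKO 70.6% against 22.2% (77.5% against 29.1% and 73.6% against 23.4% after thinning). This too was not particular to the pair. After thinning Ccl7 was found in 67.5% of cells with Ccl4 against 26.4% without in control, and 72.3% against 25.6% in cKO. For Ccl6 the shares were 19.8% against 22.6% in control and 21.7% against 19.7% in cKO.

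In cKO, though not in control, the highest Ccl3 level was in unnamed cluster 3, led by Cxcl3, Il1b and Slpi and with Ccl3 itself among its leading genes. Its 30 control cells had 211 CPM of Ccl3 (74 UMIs, interval 165 to 264) and its 57 cKO cells 2081 CPM (1067 UMIs, 1958 to 2209), with a Ccl3 UMI in 40.0% and 75.4% of cells. Ccl4 was 592 and 1486 CPM there, and Ccl2 1604 and 2039.6 CPM. This cluster held 2.83% of the Ccl3 UMIs of control cells and 29.0% of those of cKO cells. It was too small to enter the comparison. The cluster stayed unnamed because it held at least 50% of the fibroblast markers, and whether it mixes cell types or holds doublets was not tested. Joined to the macrophage-like class, cluster 3 brought the Ccl3 log2 ratio of that class from 0.53 to 0.82.

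Outside these cells the Ccl3 and Ccl4 differences rested on a handful of cells. In fibroblast-like cells Ccl3 had 7 UMIs in control and 206 in cKO (log2 ratio 1.63), of which 160 were in 1 cell, and without the 5 highest cells of each library the log2 ratio was 0.15. In dendritic cell-like cells Ccl4 had 110 UMIs in control and 730 in cKO (2.63), of which 690 were in 1 cell, and Ccl3 had 33 and 240 (2.55), of which 171 were in 1 cell. Without the 5 highest cells Ccl4 was -0.71 there. In T cell-like cells 44 of the 55 Ccl4 UMIs of cKO were in 1 cell (4 UMIs in control, log2 ratio 1.98), and in epithelium-like cells all 18 Ccl3 UMIs of cKO were in 1 cell (9 in control, 1.74) and 21 of 27 Ccl4 UMIs (28 in control, 1.95). In NK cell-like cells Ccl3 had 0 UMIs in control and 18 in cKO, at least 3.68-fold higher against a floor of 3 counts, with 16 of them in 1 cell, and Ccl4 had 9 and 58 (1.59), with 39 in 1 cell.

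Ccl5, made by NK cells, T cells and activated macrophages and known to be induced by interferon, was past 2-fold lower in cKO in each of the 5 classes compared where it reached 10 CPM. In some classes too small to compare it was higher in cKO, from few UMIs. These were lymphatic endothelium-like (0 and 28 UMIs, 0 and 21.4 CPM) and mesothelium-like cells (11 and 16 UMIs, 12.0 and 28.8 CPM). B cell-like cells had 4 and 19 UMIs (25.6 and 61.0 CPM), with a ratio interval of 0.792 to 9.63. NK cell-like cells had the highest level of Ccl5, 1815 CPM in control (1549 UMIs, interval 1726 to 1908) and 719.9 CPM in cKO (1001 UMIs, 676 to 766), 2.52-fold lower (2.33 to 2.73) and a log2 ratio of -1.33. A Ccl5 UMI was found in 77.5% of control (69.7 to 84.0%) and 64.0% of cKO NK cell-like cells (58.3 to 69.4%), and in 54.2% and 31.7% after thinning. Smooth muscle-like cells, which should lack it, had one in 0.323% and 0.292% of cells at median depths of 1892.5 and 2021.5 UMIs. Of the 3 members tested in NK cell-like cells 1 was past 2-fold lower (Ccl5) and 2 higher (Ccl3 and Ccl4). Their median log2 ratio was 1.59, which is the value of Ccl4, most of whose cKO UMIs lay in 1 cell. Over all 8411 genes tested the median was 0.13, and 4.23% were past 2-fold lower and 3.35% higher. The class's own markers summed to 3533 CPM in control and 2246 CPM in cKO (8 of 8 detected in both), and erythroid markers to 7.03 and 566 CPM (2 and 3 of 4 detected). The part of either in the Ccl5 result was not tested.

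In macrophage-like cells Ccl5 had 982 UMIs in control (418 CPM, interval 392 to 445) and 163 in cKO (120.3 CPM, 103 to 140.2), 3.48-fold lower (2.94 to 4.13) and a log2 ratio of -1.76. A UMI was found in 19.3% of control (14.9 to 24.4%) and 8.50% of cKO cells (5.03 to 13.3%), and in 11.2% and 4.50% after thinning. The 5 highest cells held 49.4% of the UMIs in control and 76.7% in cKO, and without them the log2 ratio was -2.72. In dendritic cell-like cells Ccl5 went from 1001 CPM in control (1985 UMIs, 957 to 1046) to 483 CPM in cKO (952 UMIs, 453 to 514), a log2 ratio of -1.04, in 50.3% and 36.7% of cells. That value was 0.11 when the cells with the highest doublet scores were removed.

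In T cell-like cells Ccl5 had 182 UMIs in control (219 CPM, interval 188 to 253) and 159 in cKO (97.5 CPM, 82.9 to 114), a log2 ratio of -1.13, and -0.75 without the 5 highest cells of each library. Almost all of it was in cluster 10, led by Il5 and Gata3, at 435 CPM in control and 282 CPM in cKO. Within that cluster the difference was thus short of 2-fold. Cluster 9, led by Trdc, had 7.14 and 1.86 CPM. Cluster 9 held 95 of the 193 control cells and 285 of the 437 cKO cells. In the T cell-like class 1 of the 2 members tested was past 2-fold lower (Ccl5) and 1 higher (Ccl4), where 1.6% of 8568 genes were past 2-fold lower and 2.51% higher. The median log2 ratio was 0.43 over the 2 members and 0.12 over all genes tested. Erythroid markers in this class summed to 14.4 CPM in control and 2425 CPM in cKO, and their part in the result was not tested.

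The largest Ccl5 ratio was in epithelium-like cells, where control had 3323 UMIs (178 CPM, interval 172 to 184) and cKO had 1 (0.742 CPM, 0.0188 to 4.13), 239.6-fold lower (43.0 to 9468) and a log2 ratio of -4.99. A Ccl5 UMI was found in 13.5% of control (11.7 to 15.5%) and 0.909% of cKO epithelium-like cells (0.0230 to 4.96%), and in 7.89% and 0% after thinning. Epithelium-like cells held 40.9% of all Ccl5 UMIs of control cells. Clusters 0 and 1, with 621 and 244 control cells but 10 and 1 cKO cells, had 259 and 218 CPM of Ccl5 in control. In the clusters with more cKO cells the control level was lower: cluster 5 had 73 UMIs in control (30.8 CPM, 377 cells) and 0 in cKO (69 cells), at least 3.93-fold lower, and cluster 6 had 70 (30.9 CPM, 76 cells) and 1 (1.11 CPM, 30 cells), 28.0-fold lower (4.86 to 1121). In cluster 6 all control Ccl5 UMIs lay in 4 cells. Without clusters 0 and 1 the class log2 ratio was -2.63.

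NK cell markers summed to 3.21 CPM in control and 2.97 CPM in cKO epithelium-like cells (6 and 3 of 8 detected) and T cell markers to 1.93 and 5.19 CPM (8 and 4 of 8 detected), against 178 CPM of Ccl5 in control. Macrophage markers summed to 75.5 and 13.4 CPM (8 and 6 of 8 detected, Adgre1 and Ly6c2 at 0 in cKO), and smooth muscle markers to 56.0 and 257 CPM. Their part in the Ccl5 result was not tested. Of the 3 members tested in epithelium-like cells 1 was past 2-fold lower (Ccl5) and 2 higher (Ccl3 and Ccl4). Over all 8681 genes tested in this class 7.25% were past 2-fold lower and 13.6% higher. The median log2 ratio was 1.74 over the 3 members and 0.26 over all genes tested.

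Ccl6 and Ccl9, chemokines of myeloid cells that act on Ccr1 and lie next to each other in the second block, were past 2-fold in 0 of the classes where they reached 10 CPM, the macrophage-like and dendritic cell-like ones. In macrophage-like cells Ccl6 was counted at 433 CPM in control (1018 UMIs, interval 407 to 461) and 461 CPM in cKO (625 UMIs, 426 to 499), a ratio of 1.06 (0.962 to 1.18), in 47.4% and 46.0% of cells. Ccl9 was 1511 CPM in control (3550 UMIs, 1462 to 1562) and 1904 CPM in cKO (2580 UMIs, 1831 to 1978), a ratio of 1.26 (1.20 to 1.33), in 60.7% and 72.0% of cells. T cell-like cells had 0 UMIs of either gene in both libraries. Dendritic cell-like cells also carried Ccl9, at 117 and 109.5 CPM, and a low level of Ccl6, at 11.6 and 19.8 CPM. Fibroblast-like cells stayed under 10 CPM with 31 and 6 UMIs of Ccl6, 8.76-fold lower in cKO (3.6 to 25.7), and 35 and 15 UMIs of Ccl9, 3.96-fold lower (2.11 to 7.80). In control 28 of the Ccl6 UMIs and 22 of the Ccl9 UMIs were in 1 cell.

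The remaining values past 2-fold were of Ccl2 and Ccl7 and rested on few cells. In dendritic cell-like cells Ccl2 had 26 UMIs in control (13.1 CPM) and 249 in cKO (126 CPM, log2 ratio 2.86), of which 195 were in 1 cell. In smooth muscle-like cells Ccl2 had 61 UMIs in control (63.8 CPM, 34 of them in 1 cell) and 53 in cKO (25 CPM, -1.20), and Ccl7 had 20 and 13 (20.9 and 6.12 CPM, -1.22). Without the 5 highest cells of each library these were 0.39 and 0.36. In the smooth muscle-like class 2 of 2 members tested were thus past 2-fold lower, where 1.88% of 8701 genes were lower and 3.48% higher, with medians of -1.21 over the members and 0.20 over all genes tested. In the dendritic cell-like class 1 of 7 was lower (Ccl5) and 3 were higher (Ccl2, Ccl3 and Ccl4), with a median log2 ratio of 0.58 over the 7 against 0.20 over all 7829 genes tested, of which 6.37% were lower and 3.18% higher. Epithelium markers in the dendritic cell-like class summed to 1577 CPM in control and 147 CPM in cKO (6 of 6 detected in both), T cell markers to 18.2 and 115 CPM (7 and 8 of 8), and erythroid markers to 4.03 and 1099.9 CPM (2 and 3 of 4). Their part in these results was not tested.

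**Figure D5:**
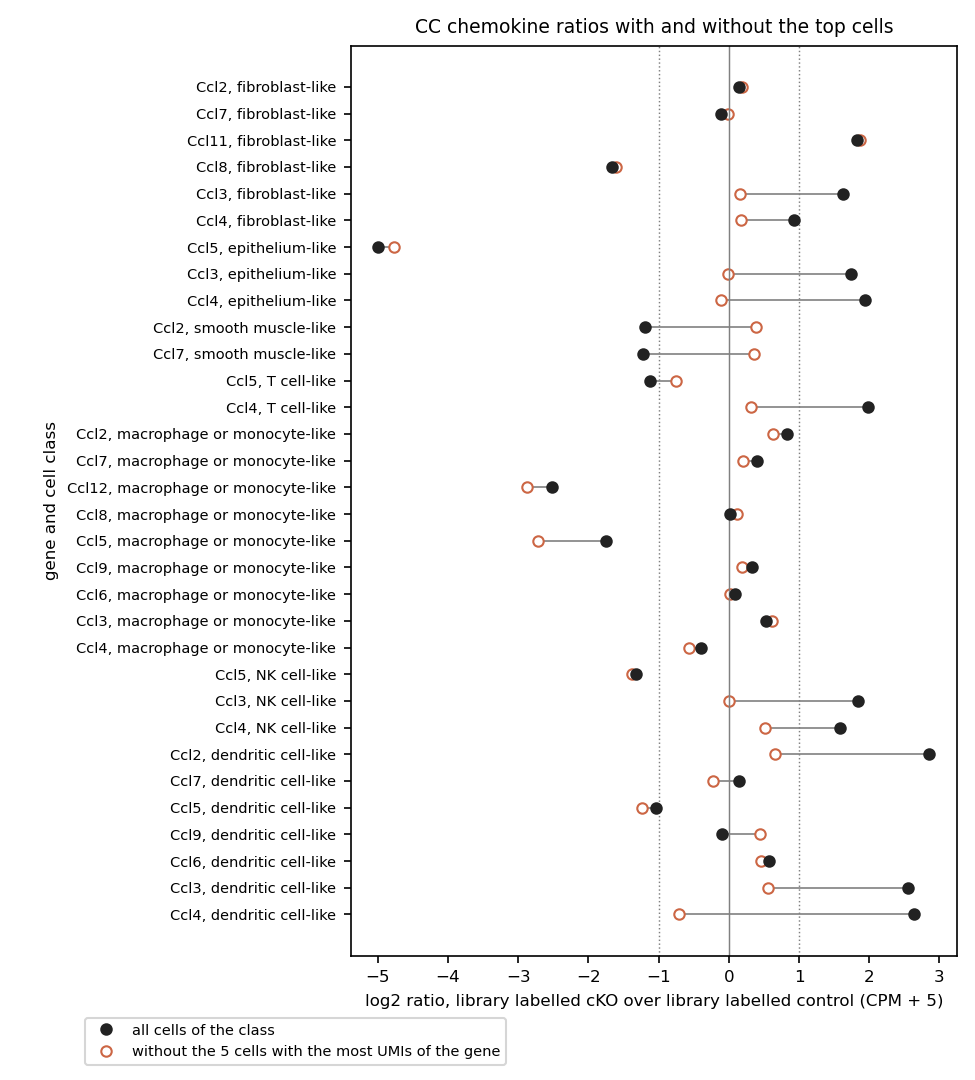
Log2 ratio of cKO over control (CPM + 5) for the members that reached 10 CPM in a class, with all cells of the class (filled) and without the 5 cells of each library with the most UMIs of the gene (open); dotted lines mark 2-fold. Ccl5 in the epithelium-like, macrophage-like and NK cell-like classes, Ccl12 in macrophage-like cells and Ccl8 and Ccl11 in fibroblast-like cells stay past 2-fold, and the Ccl3 and Ccl4 values outside macrophage-like cells move towards 0 or below it.

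In all, 19 of the 32 member-by-class values were past 2-fold, where 7.96% of all 57648 gene-by-class values were. Of these 19, 10 kept their sign under every alternative run, and 6 also stayed past 2-fold: Ccl5 in epithelium-like, macrophage-like and NK cell-like cells, Ccl12 in macrophage-like cells, and Ccl8 and Ccl11 in fibroblast-like cells. A value could reach 10 CPM through 1 library alone, as did Ccl3 in fibroblast-like cells (0.731 and 12.7 CPM) and Ccl5 in epithelium-like cells (178 and 0.742 CPM). Several others rested on a few cells, so neither the 2 shares nor the member medians by class are read as a result about the family. The share over all genes was not made for the alternatives.

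Among the classes compared, transcripts of the receptors were found in the leukocyte-like ones. None of the 14 CC receptor genes listed reached 10 CPM in fibroblast-like, epithelium-like or smooth muscle-like cells. Ccr2, the receptor of Ccl2, Ccl7 and Ccl12, was at 921 CPM in control and 1251 CPM in cKO in T cell-like cells, 982 and 1061 CPM in NK cell-like cells, 53.9 and 111 CPM in dendritic cell-like cells and 37.9 and 76.0 CPM in macrophage-like cells. In macrophage-like cells Ccr1 was at 151 and 114 CPM, and Ccr3, the receptor of Ccl11, reached 25.8 CPM in cKO (log2 ratio 0.30). Receptors past 2-fold were 0 of 7 tested in T cell-like, 0 of 5 in macrophage-like and 0 of 4 in NK cell-like cells. In dendritic cell-like cells 2 of 6 were, both lower in cKO: Ccr9 (29.7 and 1.52 CPM, log2 ratio -2.41) and Ccrl2 (69.1 and 20.3 CPM, -1.55).

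Of the 11 other CC chemokine genes listed few were detected. Ccl22 was at 2027 CPM in control and 3704 CPM in cKO in dendritic cell-like cells, where it led the cluster, and Ccl17 at 95.3 and 101 CPM. Ccl24 was at 289 and 184 CPM in macrophage-like cells (log2 ratio -0.63). Past 2-fold were Ccl28 in epithelium-like cells (16.8 and 2.23 CPM, -1.59) and Ccl22 in macrophage-like cells (4.26 and 14.0 CPM, 1.04).

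Ccl5 and Ccl12 are known targets of interferon signalling, and a list of 13 interferon-stimulated genes was read beside them. Those past 2-fold lower in cKO were 11 of 12 tested in macrophage-like cells, 10 of 10 in NK cell-like cells, 11 of 11 in epithelium-like cells, 11 of 12 in dendritic cell-like cells, 8 of 9 in T cell-like cells, 9 of 9 in fibroblast-like cells and 3 of 3 in smooth muscle-like cells, and none was past 2-fold higher. The median log2 ratios of the list were -1.82, -2.94, -3.35, -3.90, -2.52, -2.69 and -1.59 in that order. In macrophage-like cells Rsad2 went from 5449 to 1292 CPM and Cxcl10 from 1892 to 426 CPM. These genes were lower in all 7 classes compared. That includes the classes where Ccl5 was lower, and the fibroblast-like and smooth muscle-like ones, where Ccl5 stayed under 10 CPM. The list thus does not set apart the classes where Ccl5 was lower. This is a description of 1 pair of libraries, and the part of interferon in the Ccl5 and Ccl12 values was not tested.

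A list of 10 NF-kB response genes was lower in cKO in epithelium-like cells (median log2 ratio -0.93, 3 of 10 past 2-fold lower) and had no such direction in the other classes, where 0 were past 2-fold lower. Past 2-fold higher were Cxcl1 in macrophage-like (1104 and 2592 CPM, log2 ratio 1.23), smooth muscle-like (2.09 and 20.2 CPM, 1.83) and dendritic cell-like cells (56.5 and 404 CPM, 2.73) and Il6 in fibroblast-like cells (174 and 449 CPM, 1.34). Past 2-fold lower were Tnfaip3 (261 and 24.5 CPM, -3.17), Birc3 (57.5 and 9.65 CPM, -2.09) and Relb (46.1 and 17.1 CPM, -1.21) in epithelium-like cells. The list's median lay between -0.18 (T cell-like) and 0.37 (macrophage-like) outside epithelium-like cells. Of 9 inflammatory cytokine genes, Tnf went from 221 to 837 CPM in macrophage-like cells (1.90), Il1a from 63.0 to 157 CPM (1.25) and Csf1 from 53.6 to 17.7 CPM (-1.37). Also past 2-fold were Il1a in epithelium-like cells (177 and 14.1 CPM, -3.26), and in dendritic cell-like cells Tnf (9.58 and 35.5 CPM, 1.47) and Il1a (34.8 and 8.62 CPM, -1.55). Of 14 genes of the response to tissue dissociation, 2 of 14 were past 2-fold lower in epithelium-like cells (Atf3 and Btg2) and 2 of 14 higher in T cell-like cells (Hspa1a and Hspa1b), and none was past 2-fold in the other classes compared.

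The pattern of each member over 11 cell classes in both libraries (22 points, which share 2 libraries and their depths) was set beside that of all other genes by Pearson's r on log2(CPM + 5). Among the members Ccl2 was most like Ccl7 (0.948), Ccl8 like Ccl12 (0.939), Ccl3 like Ccl4 (0.904) and Ccl6 like Ccl9 (0.888). Outside the list the nearest genes were Folr2 (0.973) and Ccl24 (0.972) for Ccl8, Ccl24 (0.971) and Pla2g2d (0.967) for Ccl12, Slc11a1 (0.973) and Ms4a6d (0.953) for Ccl9, and Igsf6 (0.967) and Msr1 (0.961) for Ccl6. They were Tnf (0.901) and Nlrp3 (0.875) for Ccl3, C3ar1 (0.903) and Ms4a7 (0.888) for Ccl4, and Ifi209 (0.902) and Aftph (0.896) for Ccl5. For Ccl2 they were Lamp2 (0.925) and Itpripl2 (0.877), for Ccl7 Fnip2 (0.923) and Itpripl2 (0.899), and for Ccl11 Tmem229a (0.980) and D430019H16Rik (0.974).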

How the data were processed

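The authors deposited unfiltered UMI counts for every barcode. The file headers name Cell Ranger 4, and the submitters' processing notes name version 6.1.1 and build mm10. No normalization had been applied. Of 32285 gene identifiers 32235 (99.8%) occur in GENCODE M21 (GRCm38, the same build), the source of coordinates and coding sequence. Promoters are from RefSeq.

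Cells had at least 1000 UMIs, 500 genes and at most 20% mitochondrial UMIs. Scrublet assumed 5% doublets. Each cell was scaled to 10000 counts and logged. With scanpy 1.11.5, anndata 0.12.19, igraph 0.11.9 and Python 3.11.15, 2000 variable genes, 30 components and 15 neighbours entered Leiden clustering at resolution 1.0, with 69 chemokine and receptor genes kept out. A class name needed 3 markers in 25% of a cluster's cells at 2 times the median cluster. Among the cluster's 10 leading genes, markers of unrelated classes could not outnumber those of the class. The limit that left clusters 3 and 19 unnamed (an unrelated class's markers at 50% or more) was set after seeing the data.

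Counts were summed per library and class. Intervals are exact Poisson, Clopper-Pearson and conditional, at 95% (scipy 1.17.1, numpy 2.4.6). Scripts were tested on simulated data. All 10 members were reported in every class, in full where their level was highest or past 2-fold, and the 2 most similar outside genes were named among those reaching a minimum level. The members and lists were chosen with earlier results of these data known. Alternatives varied cell filters, resolution, pseudocount, scaling, the low-count filter, thinning, free RNA, doublets and the genes used to cluster. Some items are not reported here.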

Additional observations from a re-analysis of the deposited data

Results flagged for a closer look

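Ccl2 went in opposite directions in different cell classes. Its log2 ratio of cKO over control was 2.86 in dendritic cell-like cells and -1.20 in smooth muscle-like cells, a gap of 4.06, and each value rested on a few cells (195 UMIs in 1 cKO cell and 34 of 61 UMIs in 1 control cell). Ccl2 was also opposite between fibroblast-like clusters, 1.08 in cluster 13 and -1.07 in cluster 11, a gap of 2.15. Ccl7 was 1.59 in fibroblast-like cluster 17 and -0.80 in cluster 11, a gap of 2.39. Ccl11 was 2.40 in fibroblast-like cluster 8 and -1.55 in cluster 17, a gap of 3.96. None of these differences was tested, since each group had 1 library.

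Empty droplets (barcodes with at most 100 UMIs), which were used only to bound free RNA and to subtract it in 1 alternative, also differed between the libraries. Their Ccl2 level was 314 CPM in control and 827 CPM in cKO, a log2 ratio of 1.38. Ccl3 was at 46.5 and 152 CPM there, a log2 ratio of 1.61, and Ccl11 at 4.27 and 39.3 CPM, a log2 ratio of 2.26. In the other direction, Ccl5 was at 144 and 59.4 CPM (-1.21), Ccl12 at 19.4 and 6.54 CPM (-1.08) and Ccl8 at 134 and 84.0 CPM (-0.64).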

How the results depend on the processing

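No paired analysis was possible because each group had 1 library, and for the same reason no replicate could be left out. Of the 19 values past 2-fold, 6 stayed so under all alternatives: Ccl5 in NK cell-like (-1.49 to -1.27), epithelium-like (-6.68 to -2.63) and macrophage-like cells (-2.72 to -1.54), Ccl12 in macrophage-like cells (-3.29 to -2.42), and Ccl8 (-2.56 to -1.23) and Ccl11 (1.01 to 2.00) in fibroblast-like cells. The alternatives of leaving out the 5 highest cells and joining cluster 3 were added after the data were examined. The values below are log2 ratios that changed sign and counts of members past 2-fold that moved by over 1.5 times, and the cause was not tested unless the setting itself shows it.

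Without the 5 highest cells, Ccl2 was 0.39 and Ccl7 0.36 in smooth muscle-like cells, Ccl3 was -0.015 and Ccl4 -0.10 in epithelium-like cells, and Ccl4 was -0.71 in dendritic cell-like cells. The higher count was then 0 in NK cell-like, T cell-like, dendritic cell-like and epithelium-like cells and 1 in fibroblast-like cells (Ccl11), and the lower count 0 in T cell-like and smooth muscle-like cells. With at least 2000 UMIs per cell, Ccl4 was -0.15 in NK cell-like cells, where the higher count was 0. The higher count was 2 in T cell-like and 1 in macrophage-like cells (Ccl11), and the lower count 0 in smooth muscle-like cells. With at least 500 UMIs and 250 genes, Ccl7 was 0.70 in smooth muscle-like cells, where the lower count was 0. The lower count was 2 in T cell-like cells (Ccl5 and Ccl6) and the higher count 1 in macrophage-like cells. Thinned to 1000 UMIs, Ccl2 was 0.069 in smooth muscle-like cells, where the lower count was 0. The higher count was 2 in T cell-like and 1 in fibroblast-like cells, and the lower count 2 in epithelium-like cells (Ccl2 and Ccl5).

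Dendritic cell-like cells moved most with the clustering. Ccl4 there was -0.67 with chemokines among the variable genes and with the highest doublet scores removed, -2.51 with interferon-stimulated genes kept out, -1.27 at resolution 0.5 and -1.73 at resolution 2.0. The higher count was 1 (Ccl2) in each, except 0 with doublet scores removed, where Ccl2 was -0.10 and Ccl5 0.11. The lower count was 2 (Ccl4 and Ccl5) with interferon-stimulated genes kept out and at resolutions 0.5 and 2.0. The lower count in smooth muscle-like cells was 0 with chemokines among the variable genes, with interferon-stimulated genes kept out, at both resolutions and with a mitochondrial limit of 10%, and 1 with a pseudocount of 10 CPM. Ccl11 brought the higher count in macrophage-like cells to 1 with chemokines among the variable genes, doublet scores removed, interferon-stimulated genes kept out, resolution 0.5, the 10% limit and cluster 3 joined. In fibroblast-like cells the higher count was 1 with doublet scores removed and without clusters drawn over 90% from 1 library, and the lower count 2 (Ccl2 and Ccl8) with chemokines among the variable genes. Without the 1-library clusters the lower count in epithelium-like cells was 3 (Ccl2, Ccl5 and Ccl7).

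Depth limits the low members: Ccl12 had at most 12 UMIs in any class but the macrophage-like one, and Ccl8 at most 61 outside macrophage-like and fibroblast-like cells. In the fibroblast-like, epithelium-like, NK cell-like and dendritic cell-like cells of cKO most Ccl3 and most Ccl4 UMIs lay in 1 cell.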
